A study of Schizosaccharomyces pombe with 8 samples.

Results

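The respiratory chain and ATP synthase genes of fission yeast (Schizosaccharomyces pombe) were followed on 8 two-colour microarrays of PCR products. They were taken by name: nuclear genes whose symbol, updated by the RefSeq gene table, starts with cox, qcr, atp, sdh, cyt or rip followed by a digit. This gave 46 of the 4752 named genes on the arrays, and 7 further nuclear genes of that naming had no spot of their own (atp19, cox1102, cox14, cox20, cox7, qcr9 and sdh8). By complex the 46 genes comprised 5 of complex II, 9 of complex III, 15 of complex IV and 17 of the ATP synthase. By role, 30 encode structural subunits and 16 encode factors that assemble or mature a complex. On the array 43 members had a value at every time of both pheromone courses, of 4094 genes with all 6 values. The gene cyt1 was measured where M cells were set against P cells and on no other array, and atp14 and rip1 had no value at 2 h of P-factor.

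M cells (strain Eg796, h-, with the silent mating cassettes replaced by LEU2, cyr1::ura4+, ura4-D18 and an inactive sxa2) were treated with P-factor. P cells (strain Eg794, h+, also with a mat2 region disruption by LEU2, cyr1::ura4+ and ura4-D18) were treated with M-factor. Each synthetic pheromone was given at 1 μg/ml in MSL medium, and RNA of 2, 4 and 6 h was set against RNA taken from that culture at 0 h. On 2 more arrays M cells were set directly against P cells, once untreated and once after 6 h of pheromone. Both strains lack cyr1, the adenylate cyclase gene, which lets them respond to pheromone in the presence of nitrogen, so no array measured cells with a working cyr1. The labels give no separate cultures, and p-values below measure the spread between time points that share 1 untreated RNA per course.

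The respiratory chain of the mitochondrial inner membrane passes electrons from complex II and other dehydrogenases through coenzyme Q to complex III, then by cytochrome c to complex IV, which reduces oxygen. Complexes III and IV pump protons, and the ATP synthase lets the protons flow back to make ATP. Fission yeast has no proton-pumping complex I, and most subunits of the remaining complexes are encoded in the nucleus and imported, while a few core subunits are encoded by the mitochondrial genome.

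Values are log2 ratios of treated over untreated RNA, each the mean of the spots of a gene that had a value. At 2 h of P-factor several members had a value from 1 spot only, among them atp3, atp5, atp18, cox6, cox10 and qcr7. The array medians over all genes lay between -0.03 and 0.04, and members had a median spot SD between 0.16 and 0.38 on the arrays of the courses. Of the markers, mam1 of M cells had a log2 ratio of 2.15 and map2 of P cells -2.94 on the array of untreated M over P cells, and fus1 of the pheromone response lay between 2.55 and 3.95 on the 6 arrays of the courses. Treated RNA was labelled with Cy5 on the M-factor 2 h array and with Cy3 on the other 5. The probes are double-stranded PCR products, which do not tell apart transcripts of opposite strands. A ratio of whole cells cannot tell a change in every cell from a change in the share of responding cells.

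**Figure D1:**
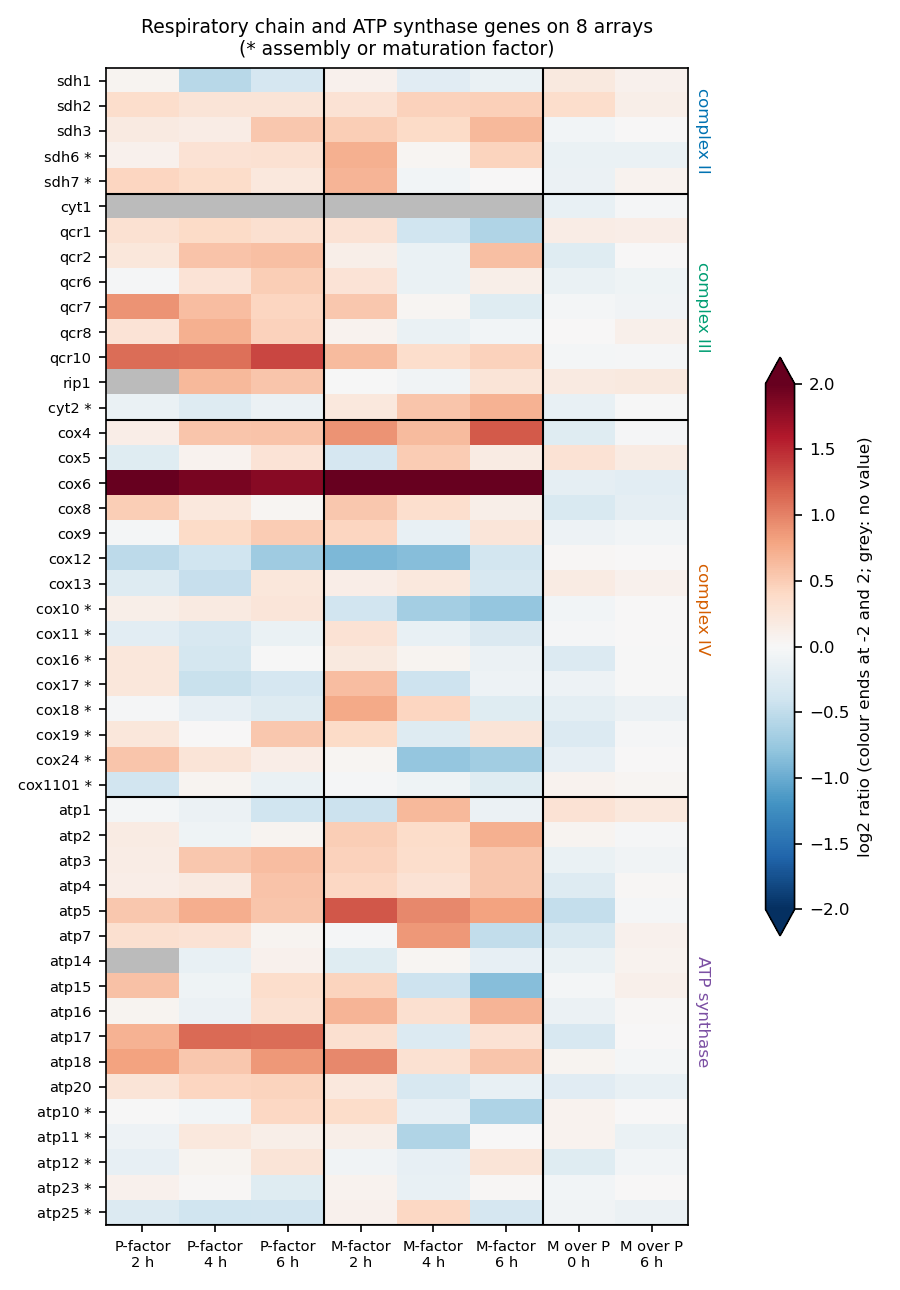
Log2 ratio of each of the 46 members (rows, grouped by complex, factors with an asterisk) on each array (columns: P-factor, M-factor, then M over P cells). Most cells are pale, cox6 is past the colour limit or near it at every time of both pheromones, and the columns of M over P cells lie between -0.48 and 0.35.

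Few respiratory genes changed by much, and those that changed were mostly structural subunits that rose by less than 2-fold. With P-factor, limma called 8 of 43 members higher and 1 lower at an adjusted p of at most 0.05. Over all genes tested 18.1% were called higher and 18.3% lower with P-factor, against 18.6% and 2.33% of the members. With M-factor 12 members were called higher (27.9% of 43, 24.1% of all genes) and 2 lower (4.65% of members, 23.2% of all genes). The share of members called higher was thus near that of all genes, and the share called lower was smaller with each pheromone. The mean log2 ratio over the 3 times had a median over members of 0.24 with P-factor and 0.12 with M-factor, against -0.02 over all genes with each. Without the P-factor 4 h array 4 members were called higher with P-factor (9.3%, against 7.65% of all genes), and without the 6 h array 3 (6.98%, against 9.33%). Without the M-factor 2 h array 7 members were called higher with M-factor (16.3%, against 20.2% of all genes), and without the 6 h array 5 (11.6%, against 20.3%).

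In all 5 members were higher with both pheromones: the complex IV subunit gene cox6, the complex III subunit gene qcr10 and the ATP synthase genes atp3, atp5 and atp18. The complex IV subunit gene cox12 was lower with both. A further 3 were called higher with P-factor and not with M-factor (atp17, qcr7 and qcr8). Another 7 were called higher with M-factor and not with P-factor (atp16, atp2, atp4, cox4, cyt2, sdh2 and sdh3). The call of cox10, lower, was made with M-factor. The remaining 26 of 43 members passed with neither pheromone. The share of all genes with each of these patterns of calls was not counted, so the patterns are not set against all genes. By sign alone, 22 of 43 members (51.2%) were above 0 at all 3 times of P-factor, against 33.6% of all genes, and 6 were below 0 at all 3 times (14.0% of members, 36.3% of all genes). With M-factor 14 of 43 (32.6%) were above 0 at all 3 times, against 33.8% of all genes, and 3 were below (6.98% of members, 32.1% of all genes).

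By role, 27 structural and 16 factor genes were tested. With P-factor 8 structural genes were called higher and 1 lower (29.6% and 3.7%, against 18.1% and 18.3% of all genes). With M-factor 11 were called higher and 1 lower (40.7% and 3.7%, against 24.1% and 23.2%). Their means had a median of 0.29 with P-factor and 0.18 with M-factor. Of the 16 factor genes limma called 0 with P-factor, and 0 reached an unadjusted p under 0.05, against 47.2% of all genes. With M-factor 1 factor was called higher (cyt2) and 1 lower (cox10), and 4 (25.0%) had an unadjusted p under 0.05, against 55.6% of all genes. The medians of the factors were 0.00 with P-factor and 0.02 with M-factor. The difference between structural and factor genes was not tested.

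Of these 23 calls of a member with a pheromone, 8 held with any 1 of the 6 arrays left out. They were atp17, cox6 and qcr10 with P-factor and atp5, cox4, cox6, cox10 and cox12 with M-factor. The other 15 were lost without at least 1 array, with an adjusted p of at most 0.27. With P-factor, qcr7 and cox12 were lost without any 1 of the P-factor arrays, atp3, atp5 and qcr8 without the 4 h or the 6 h array, and atp18 without the 6 h array. With M-factor, atp3 and atp4 were lost without any 1 of the M-factor arrays, sdh2 and cyt2 without the 4 h or the 6 h array, atp16 and qcr10 without the 2 h or the 6 h array, atp2 and sdh3 without the 6 h array, and atp18 without the 2 h array. Since the courses share their spread, arrays of the other course mattered too for atp3 with both pheromones and for atp4 and sdh2 with M-factor.

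**Figure D2:**
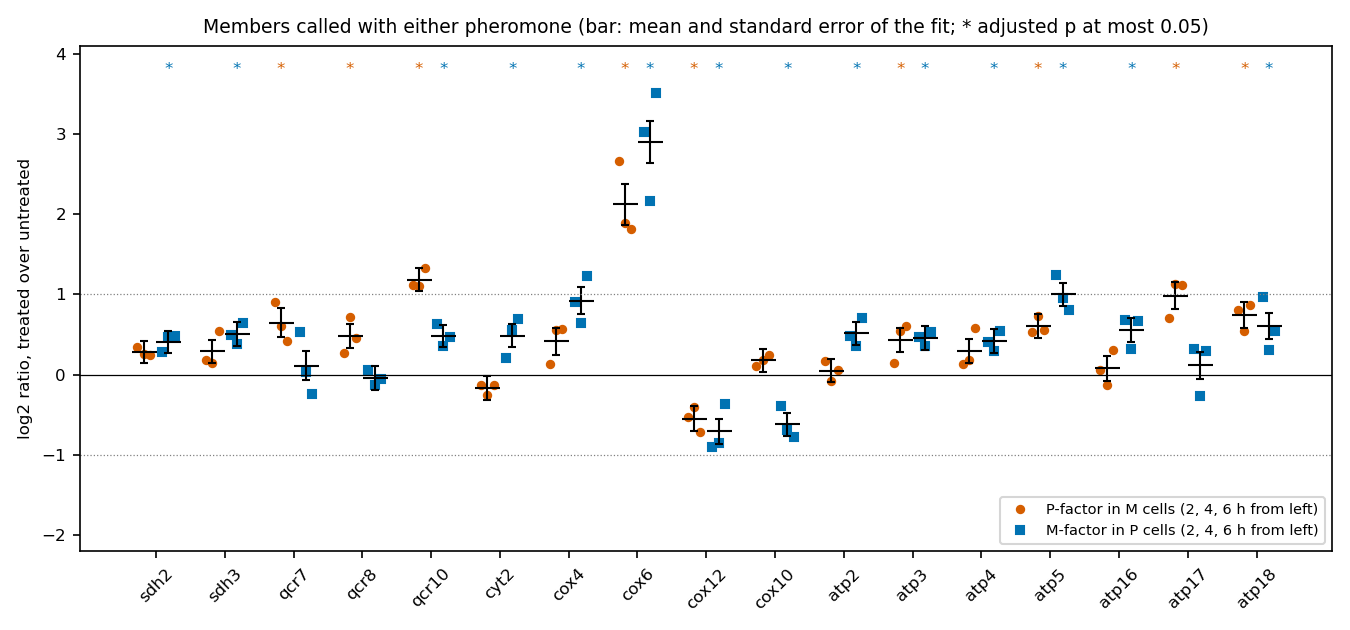
Log2 ratios at 2, 4 and 6 h (points from left) of the 17 members called with either pheromone, P-factor in orange and M-factor in blue. Black bars are the mean and standard error of the fit and asterisks mark calls. The cox6 values lie between 1.82 and 3.51, while most other points lie between -1 and 1 (dotted lines, 2-fold).

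Complex II oxidises succinate and is the one respiratory enzyme that also belongs to the citrate cycle. Its iron-sulfur subunit gene sdh2 had log2 ratios of 0.35, 0.26 and 0.25 at 2, 4 and 6 h of P-factor and 0.28, 0.47 and 0.48 with M-factor. The mean was called with M-factor (0.41 ± 0.13 (SE, n = 3 times), adjusted p = 0.0317) and not with P-factor (0.29 ± 0.13, adjusted p = 0.125). The gene sdh3, for the membrane anchor, had 0.18, 0.15 and 0.54 with P-factor and 0.50, 0.38 and 0.65 with M-factor. It too was called with M-factor (mean 0.51, adjusted p = 0.0191) and not with P-factor (mean 0.29, adjusted p = 0.152). All 6 values of each gene, as means of the spots, were above 0, and the P-factor and M-factor values of each overlapped. The spots did not all share that sign. Those of sdh2 were 0.66 and -0.14 at 4 h of P-factor and 1.10 and -0.13 at 6 h of M-factor. Those of sdh3 were -0.06 and 0.42 at 2 h of P-factor, -0.19 and 0.48 at 4 h of P-factor, and -0.21 and 0.96 at 4 h of M-factor. The flavoprotein gene sdh1, whose product holds the succinate-binding site, went the other way in sign, with 0.05, -0.55 and -0.34 for P-factor and 0.08, -0.23 and -0.14 for M-factor, and was called with neither (adjusted p = 0.198 and 0.648). The genes sdh6 and sdh7, whose budding yeast counterparts help to assemble the iron-sulfur subunit, had means of 0.23 and 0.34 with P-factor and 0.40 and 0.21 with M-factor, and none of these passed.

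Complex III moves electrons from reduced coenzyme Q to cytochrome c. It was the complex with the highest median of structural subunits on each P-factor array. The medians were 0.28, 0.61 and 0.49 at 2, 4 and 6 h of P-factor and 0.27, -0.13 and 0.12 with M-factor. At 4 and 6 h of P-factor all 7 structural genes measured were above 0. The small subunit gene qcr10 (SPBP4H10.08) had log2 ratios of 1.12, 1.10 and 1.33 with P-factor and 0.63, 0.36 and 0.46 with M-factor. Its values with P-factor all lay above those with M-factor, and all 6 were above 0. The means were 1.18 ± 0.14 with P-factor (2.27-fold, adjusted p = 0.00047) and 0.48 ± 0.14 with M-factor (1.40-fold, adjusted p = 0.0189). Both spots of qcr10 lay between 0.93 and 1.39 on the P-factor arrays.

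The small subunit genes qcr7 and qcr8 followed with P-factor. The ratios of qcr7 were 0.91, 0.61 and 0.43 with P-factor (mean 0.65, adjusted p = 0.0209) and 0.54, 0.03 and -0.23 with M-factor (mean 0.11, adjusted p = 0.632). Those of qcr8 were 0.27, 0.72 and 0.46 with P-factor (mean 0.48, adjusted p = 0.0302) and 0.06, -0.13 and -0.05 with M-factor (mean -0.04, adjusted p = 0.85). In each course the mean of the spots of qcr7 was lower at each later time, and the courses overlapped, while those of qcr8 did not overlap. With P-factor neither spot of qcr7 fell at each later time. In 1 spot the values were 0.91, 1.10 and 0.48, and the other had no value at 2 h, then 0.13 and 0.37. The core protein gene qcr2 had 0.22, 0.57 and 0.60 with P-factor and 0.12, -0.14 and 0.60 with M-factor. Its mean of 0.46 with P-factor had an adjusted p of 0.0622, and of 0.0452 with the time point as a block. The other core protein gene, qcr1, had 0.30, 0.38 and 0.32 with P-factor and 0.29, -0.40 and -0.61 with M-factor, and neither mean was called (adjusted p = 0.181 and 0.294).

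The redox-active subunits of complex III were measured in part. The gene rip1, for the Rieske iron-sulfur protein, had 0.65 and 0.56 at 4 and 6 h of P-factor, with no value at 2 h, and -0.01, -0.08 and 0.27 with M-factor. It was left out of the main fit for the missing value, and was called higher with P-factor in the fit of genes with at least 2 values per pheromone. The gene cyt1, for cytochrome c1, had ratios of -0.15 and -0.02 on the arrays of untreated and treated M over P cells. The hinge protein gene qcr6 was at -0.03, 0.27 and 0.49 with P-factor and 0.27, -0.13 and 0.12 with M-factor.

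The factor of complex III, cyt2, encodes the lyase that attaches haem to cytochrome c1. Its log2 ratios were -0.13, -0.25 and -0.12 with P-factor (mean -0.17, adjusted p = 0.405) and 0.21, 0.56 and 0.70 with M-factor (mean 0.49, adjusted p = 0.0229). All values with P-factor were below 0 and all values with M-factor above 0. Its 2 spots differed at 4 h of M-factor, at 0.04 and 1.08. They also differed in sign with P-factor, at -0.53 and 0.02 at 4 h and at -0.30 and 0.05 at 6 h.

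Complex IV, cytochrome c oxidase, held both the member with the highest mean and the member with the lowest. The nuclear subunit gene cox6 (SPAC1B2.04, chromosome I) had log2 ratios of 2.66, 1.89 and 1.82 with P-factor and 3.02, 2.17 and 3.51 with M-factor. All 6 values were past 2-fold, and the 2 courses overlapped. Its means were 2.12 ± 0.26 with P-factor (4.36-fold, adjusted p = 0.000516) and 2.90 ± 0.26 with M-factor (7.46-fold, adjusted p = 6.7e-05). The spots of cox6 did not read alike at 4 h, where they gave 0.45 and 3.33 with P-factor and 0.73 and 3.61 with M-factor, nor at 2 h of M-factor, where they gave 3.71 and 2.33. At 2 h of P-factor 1 spot had a value.

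By the rule of at least 2-fold at all 3 times, cox6 and qcr10 rose with P-factor (2 of 43 members, against 3.24% of 4100 genes). With M-factor cox6 alone of 45 members passed that rule (4.25% of 4616 genes). No member fell by it with either pheromone, where 2.34% of genes did so with P-factor and 2.6% with M-factor. At 1.5-fold the rule took atp17, cox6 and qcr10 with P-factor (3 of 43 members, 8.12% of genes) and atp5, cox4 and cox6 with M-factor (3 of 45 members, 10.7% of genes). At that limit too no member fell, against 8.56% of genes with P-factor and 8.88% with M-factor.

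The other structural genes of complex IV stayed below 2-fold on the mean. The gene cox4, for a subunit on the matrix side, had 0.13, 0.55 and 0.57 with P-factor (mean 0.42, adjusted p = 0.0767) and 0.90, 0.64 and 1.23 with M-factor (mean 0.92, 1.90-fold, adjusted p = 0.00201). All its M-factor values lay above its P-factor values. The gene cox5 had -0.25, 0.07 and 0.27 with P-factor and -0.34, 0.52 and 0.17 with M-factor, and each course held both signs. The gene cox12, for a small subunit on the intermembrane space side, had -0.53, -0.40 and -0.71 with P-factor and -0.89, -0.86 and -0.37 with M-factor. All 6 values, as means of the spots, were below 0, with means of -0.55 (adjusted p = 0.0248) and -0.71 (adjusted p = 0.00575). The spots of cox12 differed in sign at 6 h of M-factor, at 0.26 and -0.9995. With P-factor they shared the sign but not the size, at -0.21 and -0.85, -0.07 and -0.74, and -0.47 and -0.95 at 2, 4 and 6 h. The genes cox8, cox9 and cox13 were called with neither pheromone.

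The 8 factor genes of complex IV had means between -0.22 and 0.32 with P-factor and between -0.62 and 0.32 with M-factor. The gene cox10, for the enzyme that makes the haem A precursor by adding a farnesyl group, had 0.11, 0.18 and 0.25 with P-factor (mean 0.18, adjusted p = 0.35) and -0.39, -0.69 and -0.78 with M-factor (mean -0.62, adjusted p = 0.00675). Its values were above 0 at each time of P-factor and below 0 at each time of M-factor. The gene cox24, whose budding yeast counterpart acts in the expression of the mitochondrial COX1 mRNA, had 0.56, 0.27 and 0.13 with P-factor and 0.03, -0.77 and -0.70 with M-factor. Its mean of -0.48 with M-factor had an adjusted p of 0.0601, and of 0.025 with the time point as a block. The copper delivery genes cox17, cox19 and cox1101 and the spots named cox11 were called with neither pheromone. The name cox11 is an older one that fits both cox1101 and cox1102, near-identical copies, so its values of -0.21, -0.32 and -0.14 with P-factor and 0.28, -0.15 and -0.30 with M-factor cannot be given to 1 of them.

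The ATP synthase has a catalytic head, a central stalk, a peripheral stalk and a membrane part. In the head, the alpha subunit gene atp1 had log2 ratios of -0.03, -0.12 and -0.40 with P-factor and -0.44, 0.65 and -0.12 with M-factor, and was called with neither. The catalytic beta subunit gene atp2 had 0.17, -0.08 and 0.06 with P-factor (mean 0.05, adjusted p = 0.812) and 0.49, 0.36 and 0.71 with M-factor (mean 0.52, adjusted p = 0.015). Its values with M-factor, as means of the spots, all lay above those with P-factor. The spots of atp2 differed in sign on each P-factor array. Spot 1 gave -0.38, -0.46 and -0.24 at 2, 4 and 6 h, and spot 2 gave 0.71, 0.30 and 0.35. In spot 2 the courses overlapped, with 0.63, 0.44 and 0.90 for M-factor. In the central stalk, the gamma subunit gene atp3 had 0.14, 0.54 and 0.61 with P-factor and 0.46, 0.35 and 0.54 with M-factor. Both means of atp3 were called, at 0.43 with P-factor (adjusted p = 0.0471) and 0.45 with M-factor (adjusted p = 0.0323), and the courses overlapped. In the fit of genes with at least 2 values per pheromone the P-factor mean of atp3 had an adjusted p of 0.0501. The delta subunit gene atp16 had 0.06, -0.12 and 0.30 with P-factor and 0.68, 0.32 and 0.67 with M-factor, where its mean of 0.56 was called (adjusted p = 0.015). The epsilon subunit gene atp15 had 0.59, -0.08 and 0.34 with P-factor and 0.44, -0.41 and -0.85 with M-factor and was not called.

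In the peripheral stalk, atp5 (SPCC1840.06), for the protein that joins the stalk to the head, had 0.54, 0.73 and 0.55 with P-factor and 1.24, 0.96 and 0.81 with M-factor. The M-factor values of atp5 all lay above its P-factor values, and all 6 were above 0. Its means were 0.61 ± 0.15 with P-factor (1.52-fold, adjusted p = 0.0119) and 1.00 ± 0.15 with M-factor (2.00-fold, adjusted p = 0.00073). The other stalk genes moved less, with atp4 called at 0.42 with M-factor (adjusted p = 0.0447, and 0.054 with arrays centred on the median) and atp7 called with neither. The gene atp14 had no value at 2 h of P-factor and lay between -0.25 and 0.09 elsewhere in the courses.

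Among the small membrane subunits, atp17 (SPBC1604.11) had 0.70, 1.13 and 1.12 with P-factor and 0.33, -0.27 and 0.29 with M-factor. Its values did not overlap between the courses, and the mean was called with P-factor (0.98 ± 0.17, 1.98-fold, adjusted p = 0.00277) and not with M-factor (0.12 ± 0.17, adjusted p = 0.602). The gene atp18 had 0.81, 0.54 and 0.87 with P-factor and 0.96, 0.31 and 0.55 with M-factor, and both means were called (0.74, adjusted p = 0.00851, and 0.61, adjusted p = 0.0142). The gene atp20, for a subunit that in budding yeast helps the enzyme to form dimers, had 0.26, 0.43 and 0.45 with P-factor and 0.21, -0.32 and -0.14 with M-factor and was called with neither (adjusted p = 0.0778 and 0.681). None of the 5 ATP synthase factors was called: atp10, atp11, atp12, atp23 and atp25 had means between -0.35 and 0.12 with P-factor and between -0.16 and 0.06 with M-factor. The lowest of these, atp25, had -0.27, -0.40 and -0.38 with P-factor (adjusted p = 0.125).

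**Figure D3:**
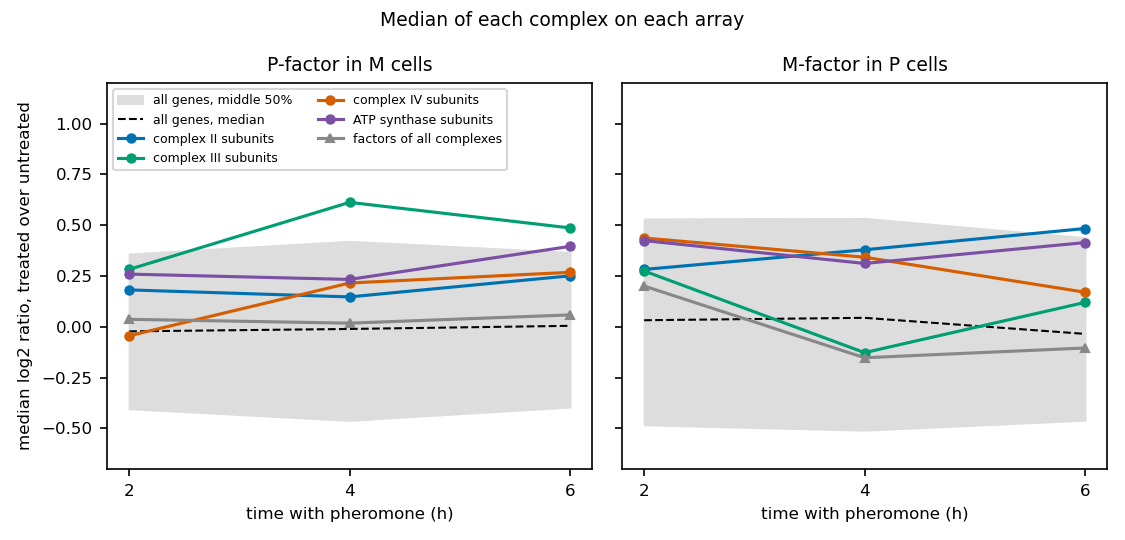
Median log2 ratio of the structural genes of each complex and of the factors of all complexes at 2, 4 and 6 h, with P-factor on the left and M-factor on the right. The grey band is the middle 50% of all genes and the dashed line their median. Complex III leads at each time of P-factor (0.28, 0.61 and 0.49), while on the M-factor side it lies at 0.27, -0.13 and 0.12.

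Over all members of a complex the means of the 3 array medians with P-factor were 0.23 for complex II, 0.44 for complex III, 0.10 for complex IV and 0.17 for the ATP synthase. With M-factor they were 0.32, 0.11, 0.03 and 0.22 in the same order. Over structural genes alone they were 0.19, 0.46, 0.15 and 0.30 with P-factor and 0.38, 0.09, 0.32 and 0.38 with M-factor, so complex IV was lowest with M-factor only where its factors were counted. The SD of the medians over the times was 0.04 for complex II, 0.16 for complex III, 0.04 for complex IV and 0.13 for the ATP synthase with P-factor, and 0.25, 0.19, 0.22 and 0.17 with M-factor. The median over members was 0.14, 0.18 and 0.27 at 2, 4 and 6 h of P-factor, and 0.28, 0.03 and 0.02 with M-factor. The M-factor 2 h array, with 36 of 45 members above 0, is also the array with the reversed dyes, and its part in the order of the medians was not tested. From 2 h to 6 h the members changed by a median of 0.08 with P-factor (26 of 43 higher at 6 h) and of -0.16 with M-factor (15 of 45 higher at 6 h), against -0.03 and -0.01 over all genes.

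The difference between the pheromones was tested in the same fit, as the P-factor mean minus the M-factor mean. It was called higher for 0 of 43 members and lower for 0 of 43, against 2.56% and 2.08% of all genes, and 7 members (16.3%) had an unadjusted p under 0.05, against 26.7% of all genes. Of these the P-factor mean was higher for atp17 (difference 0.87 ± 0.24, adjusted p = 0.0672), cox10 (0.80 ± 0.20, adjusted p = 0.0555), cox24 (0.79 ± 0.26, adjusted p = 0.0999), qcr10 (0.70 ± 0.20, adjusted p = 0.0685) and qcr8 (0.52 ± 0.21, adjusted p = 0.15). It was lower for cyt2 (-0.66 ± 0.21, adjusted p = 0.0911) and atp2 (-0.47 ± 0.20, adjusted p = 0.171). The genes called with 1 pheromone and not with the other were therefore not shown to differ between them. All 6 structural genes of complex III in the fit had a difference above 0, with a median of 0.53, and none was called. Values of the courses did not overlap for 12 of 43 members (27.9%), against 33.2% of all genes, 7 of them higher with P-factor and 5 higher with M-factor. Every value of one course lay on the opposite side of 0 from every value of the other for cox10 and cyt2, and for 6.57% of all genes. For cox6 the difference was -0.77 ± 0.36 (adjusted p = 0.204).

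**Figure D4:**
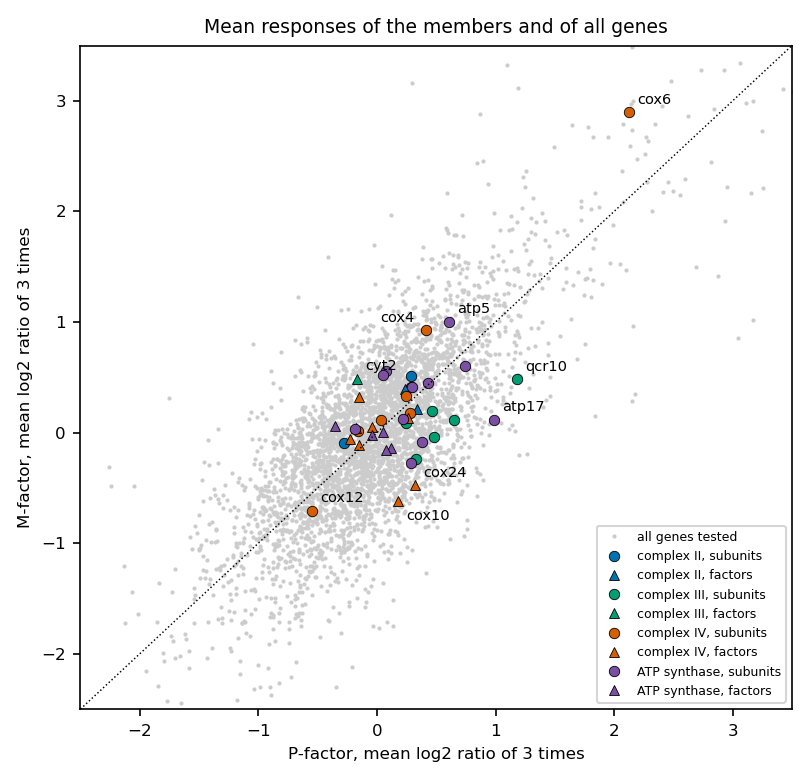
Mean log2 ratio of the 3 times with P-factor (x axis) against M-factor (y axis), for members by complex (circles, subunits, triangles, factors) over all 4094 genes tested (grey). The dotted line marks equal means, and 39 genes lie outside the axes. The cox6 point stands apart at 2.12 and 2.90, qcr10 and atp17 lie to the right of the line, and cox10 and cyt2 lie on opposite sides of it.

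On the array of untreated M over P cells the members differed little between the cell types. Their log2 ratios lay between -0.48 for atp5 and 0.35 for sdh2, with a median of -0.10, against -0.02 over all genes. None of the 46 was past 2-fold, where 0.842% of genes were. Past 1.2-fold were 9 members (19.6%, against 17.2% of all genes): atp1, cox5 and sdh2 were higher in M cells, and atp17, atp5, atp7, cox16, cox19 and cox8 were lower in M cells. After 6 h of pheromone the ratios lay between -0.21 for cox6 and 0.22 for atp1, with a median of 0.00. None was past 2-fold (0.442% of genes) or past 1.2-fold (5.41% of genes). The strength of these values is limited by 1 array each.

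The change of the M over P ratio between 0 and 6 h and the difference of the 6 h arrays of the courses measure the same quantity by different arrays. Over 45 members the direct route had a median size of 0.08 and the difference of the courses 0.29, and the direct value was the smaller in 35 (77.8%). The signs were the same in 26 (57.8%). Over 4598 genes the median sizes were 0.11 and 0.36, the direct value was smaller for 81.6%, and the signs were the same for 57.8%. The markers did not all go the same way: sxa2 had 1.96 by the direct route and 5.87 by the courses, mam2 1.40 and 5.36, mam3 2.04 and 2.67, mam1 -0.05 and 1.91, map2 -0.18 and -3.13, and map3 -2.31 and 0.06. For cox10 the values were 0.06 and 1.03, and for cox6 -0.03 and -1.69. Differences between the courses at 6 h were thus mostly larger than those measured directly, for members as for all genes.

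Many of these genes share DNA with another transcript. Of 45 members placed by RefSeq, 19 lie on chromosome I, 15 on chromosome II and 11 on chromosome III. In that annotation 15 of 45 overlap a protein-coding gene, 30 a non-coding gene and 38 either kind. The share of all genes with such an overlap was not counted, so these counts do not set the members apart from other genes. The gene cox4 (SPAC1296.02) overlaps sxa2 (SPAC1296.03c), the protease gene mutated in the M cells, which had log2 ratios of 8.37, 9.36 and 6.27 with P-factor and -0.23, 0.06 and 0.40 with M-factor. Those of cox4 were 0.13, 0.55 and 0.57 with P-factor and 0.90, 0.64 and 1.23 with M-factor. The gene cox10 (SPBC365.02c) overlaps csr103 (SPBC365.01), which had 0.74, 1.76 and 1.36 with P-factor and 5.49, 5.48 and 5.08 with M-factor, while cox10 was at 0.11, 0.18 and 0.25 with P-factor and at -0.39, -0.69 and -0.78 with M-factor. In both of these pairs the respiratory gene was the lower in the course where its neighbour was the higher. This did not hold for every overlapping pair, and the other pairs measured went both ways. For example, qcr8 and its neighbour rex3 both had the higher mean with P-factor. Whether the neighbour has a part in the member's values was not tested. Nor was it for qcr8 and rip1, whose overlapping genes rex3 and ppa2 had means of 0.62 and -0.88 with P-factor and 0.33 and -0.54 with M-factor.

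**Figure D5:**
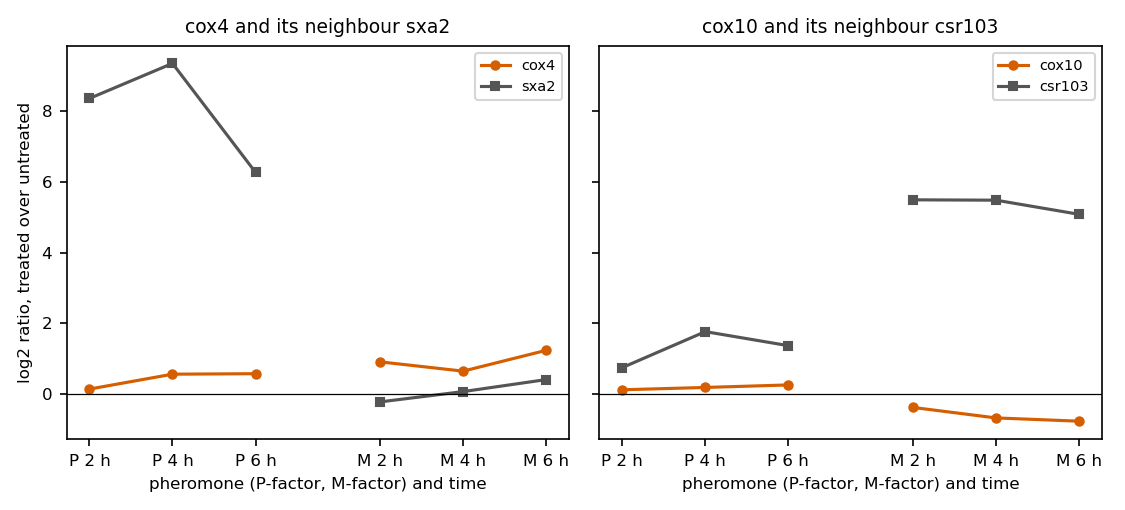
Log2 ratios of cox4 and sxa2 (left panel) and of cox10 and csr103 (right panel) at 2, 4 and 6 h of P-factor, then of M-factor. The neighbour reaches 6.27 to 9.36 with P-factor in the left panel and 5.08 to 5.49 with M-factor in the right panel, while the respiratory gene stays between -0.78 and 1.23.

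Core subunits encoded by the mitochondrial genome are not members, but 3 were on the arrays. The gene cob, for cytochrome b of complex III, had 0.15, 1.19 and 1.22 with P-factor (mean 0.85, adjusted p = 0.0268) and -0.17, 0.78 and 0.64 with M-factor (mean 0.42, adjusted p = 0.192). The complex IV core genes went apart in sign with M-factor: cox2 had a mean of 0.52 with P-factor (adjusted p = 0.037) and 0.57 with M-factor (adjusted p = 0.02), and cox1 had -0.08 with P-factor (adjusted p = 0.733) and -0.57 with M-factor (adjusted p = 0.0169).

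Other genes of the pathway were counted from lists written by role, and their counts stand beside 18.1% higher and 18.3% lower over all genes with P-factor, and 24.1% and 23.2% with M-factor. Of 6 genes for electron entry and carriers, 2 were higher and 1 lower with P-factor, and 3 higher and 1 lower with M-factor. The highest was gut2, for the mitochondrial glycerol-3-phosphate dehydrogenase, at a mean of 2.08 with each pheromone, and the lowest ura3, for dihydroorotate dehydrogenase, at -0.46 with P-factor and -1.14 with M-factor. Cytochrome c, cyc1, which links complexes III and IV, had 0.75, 0.76 and 0.79 with P-factor and 1.52, 1.14 and 1.14 with M-factor, both called (means 0.77 and 1.27). Of 12 genes for coenzyme Q synthesis, 2 were higher and 3 lower with each pheromone. The lowest was coq3, a methyltransferase, at means of -2.12 with P-factor and -1.72 with M-factor. Its values with M-factor were uneven, at -2.79, 0.09 and -2.47 at 2, 4 and 6 h. Of 14 genes of the citrate cycle and pyruvate dehydrogenase, 4 were higher and 1 lower with P-factor and 6 higher and 2 lower with M-factor. Citrate synthase, cit1, had 0.38, 0.51 and 0.49 with P-factor and 1.28, 1.36 and 1.32 with M-factor, and its difference of -0.86 was called (adjusted p = 0.0376).

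Of 20 further assembly and expression factors, 5 were higher and 2 lower with P-factor and 4 higher and 5 lower with M-factor. The extremes were bcs1, which inserts the Rieske protein, at means of 0.94 and 0.83, and coa4, a complex IV assembly factor, at -1.45 and -1.32, with P-factor and with M-factor in that order. The ATPase inhibitor gene inh1 was called higher with both, at 0.93 with P-factor and 0.72 with M-factor. The Php complex binds CCAAT sequences and controls respiratory genes. Of its 4 genes, php4 was lower with P-factor (mean -0.65, adjusted p = 0.0427), and none was called with M-factor. Of 14 genes of glycolysis and fermentation, 3 were higher and 3 lower with P-factor and 3 higher and 1 lower with M-factor, with pyruvate kinase, pyk1, the lowest at -1.84 with P-factor and -1.36 with M-factor.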

How the data were processed

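The authors scanned 8 two-colour arrays of PCR products, took spot values with Imagene 4.2 and applied a lowess normalisation in GeneSpring. The authors deposited log2 ratios at 2 h and 4 h of M-factor and natural log ratios for the 3 P-factor arrays, the M-factor 6 h array and the array of untreated M over P cells. The bases, not stated, were found by working out which base gives back the fold changes in the study's list of induced genes. Of 156 entries, 150 matched with M-factor and 119 with P-factor, within 2% or a small absolute difference. For untreated M over P cells 153 matched, by a small absolute difference alone. The treated M over P array was read as natural log too, which is likely and could not be settled. Without intensities among the deposited values the signal over background of a spot is unknown, and precision is limited by the number of arrays.

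All values were converted to log2 and spots averaged per gene. Of 11520 spots 9522 had 1 symbol, 134 several and 1864 none, and 9474 were updated by gene number. RefSeq (ASM294v3) served for names and neighbours. Means over the times were tested with limma 3.58.1 (R 4.3.3, functions lmFit and eBayes), on 4094 genes with Benjamini-Hochberg adjustment, 1 mean per pheromone and a shared spread. A call is an adjusted p of at most 0.05, and errors are the fit's standard errors. Same-time arrays of the courses deviated together (r = 0.35, 0.105 and 0.349 at 2, 4 and 6 h, at most 0.0374 for different times), so time pairs the arrays and was tried as a block. The fit was tested on simulated data with known folds added to the M-factor arrays alone and a spread independent between arrays. No P-factor change and no pairing by time was simulated. Python 3.11.15 with pandas 2.3.3 did the rest. The 2 comparisons of M over P cells are single arrays and were not tested.

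Members and lists were chosen with earlier results of these data known. Members named with all values were the catalytic or redox-active subunits, those with the highest and lowest means, those past 2-fold, and the extremes of the M over P arrays. The other members, csr103, rex3, ppa2, cyc1, cit1 and inh1 were named after their values were seen. Alternatives changed the log base, centring, scale, threshold, spots, missing values, fit, test and arrays used. Promoter sequences were not analysed here.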

Additional observations from a re-analysis of the deposited data

Results flagged for a closer look

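The 2 members here had every value of one course on the opposite side of 0 from every value of the other, which 269 of 4094 genes (6.57%) did. For cox10 the P-factor mean minus the M-factor mean was 0.80 (0.18 with P-factor, -0.62 with M-factor), with an adjusted p of 0.0555. For cyt2 it was -0.66 (-0.17 with P-factor, 0.49 with M-factor), with an adjusted p of 0.0911. Neither difference passed limma's test. The spots of cox10 at 4 h of M-factor were -1.34 and -0.03. Those of cyt2 with P-factor were -0.53 and 0.02 at 4 h and -0.30 and 0.05 at 6 h.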

How the results depend on the processing

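With the time point as a block, 9 members were higher and 1 lower with P-factor (20.4% and 21.5% of all genes). Without it they were 8 and 1 (18.1% and 18.3% of all genes). With M-factor 12 were higher and 3 lower with the block (26.4% and 26.2% of all genes). Without it they were 12 and 2 (24.1% and 23.2% of all genes). The block added qcr2 and cox24 and changed no other call. The 8 higher of P-factor rose to 11 with each course fitted alone (25.6% of members, 22.8% of all genes). They rose to 10 with arrays scaled to one spread (23.3% of members, 21.8% of all genes). With P-factor the count of 8 higher became 3 with all arrays read as log2 or all as natural log (8.89% of all genes), 2 for a change of more than 1.5-fold (3.42%), 4 with spots within an SD of 0.5 (22.2% of 18 members, 19.3% of genes), 0 with the methods' t-test after adjustment (0.0733%), and 3 to 9 leaving out 1 array. The 1 lower became 0 with all arrays read as log2 or all as natural log (7.94% of all genes) and for more than 1.5-fold (1.66%). It also became 0 with the spot limit (19.2%) and with the t-test (0.0733%). It was 2 with each course fitted alone (24.9%) and 0 to 1 leaving out 1 array (5.72% to 20.8%). With M-factor the 12 higher became 1 for more than 1.5-fold (5.59% of all genes), 4 fitted alone (18.1%) and 0 with the methods' t-test (0.0977%). They became 5 with spots within the SD limit (27.8% of 18 members, 25.3% of genes). Leaving out 1 array gave 5 to 11 higher (18.7% to 23.4% of all genes). The 2 lower became 0 for more than 1.5-fold (4.69% of genes), 0 with the spot limit (21.3%) and 0 with the t-test (0.0244%). Leaving out 1 array gave 2 to 5 lower (18.6% to 22.0% of genes), with 5 without the M-factor 2 h array (21.3%). For the difference, 0 higher became 2 with arrays scaled to one spread (atp17 and qcr10, 3.54% of genes). Leaving out 1 array gave 0 to 3 higher (0.171% to 3.86% of genes), with cox10, cox24 and qcr1 called without the M-factor 2 h array (3.86%). At least 1.5-fold at all 3 times were 3 of 43 members with P-factor (8.12% of genes) and 3 of 45 with M-factor (10.7% of genes), against 1 with M-factor at 2-fold. For structural genes alone the medians of complex IV were 0.15 with P-factor and 0.32 with M-factor, and those of the ATP synthase 0.30 and 0.38. Of 354 values of single called genes under the alternatives, 250 stayed on their side of the threshold, 104 lost the call and 0 reversed. The cause of these moves was not tested, beyond fewer genes, arrays or degrees of freedom in some settings. Both spots had a value in 253 pairs of member and course array, and their SD was over 0.5 in 43.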
